A study of Homo sapiens with 6 samples.

Results

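The 8 genes described here are the EPHB receptors EPHB1, EPHB2, EPHB3, EPHB4 and EPHB6 and the ephrin-B ligands EFNB1, EFNB2 and EFNB3, chosen by name out of 19974 protein-coding genes on the autosomes and the X chromosome. A peak or differential region was assigned to a gene when it overlapped by at least 1 bp the gene's RefSeq span (GRCh38.p14) extended by 2 kb at both ends. The libraries come from D283, an established cell line of Group 3 medulloblastoma, a cerebellar tumor of childhood, grown after silencing as tumorspheres on low-binding plates; the neural precursor medium held B27, N2, bFGF and EGF. Cells received 30 nM siRNA against OTX2, the homeodomain factor of these tumors (OTX2low), or a scramble siRNA (OTX2high). One library per condition was made for H3K4me3, found at promoters in use or held ready, and one for H3K27me3, which Polycomb complexes lay down on silenced genes. IgG controls make up the other 2 of the 6 libraries. Their titles and silencing labels name opposite conditions, and they were put in no group. All values come from 1 cell line, no group has a replicate, and a mark on fewer cells cannot be told apart from a weaker mark per cell.

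EPHB proteins are receptor tyrosine kinases that bind ephrin-B ligands on a neighboring cell. The ligands span the membrane themselves, so signals run forward into the receptor-bearing cell and in reverse into the ligand-bearing cell. In the developing brain the pairs guide axons, set tissue boundaries, position progenitors and shape synapses. The MACS fold enrichment quoted below is the authors' ratio of the ChIP pileup at a peak's summit over the local IgG background. The log2 ratios are those of the authors' diffReps tables, OTX2high over OTX2low, so a negative value is higher in OTX2low. Each adjusted p there comes from a G-test of 1 library against 1 and compares the reads of those libraries, not the conditions. Intervals are exact conditional 95% intervals from the recovered whole reads and cover counting error only.

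H3K4me3 libraries held 33137731 tags (OTX2high) and 20914582 tags (OTX2low) after filtering. The H3K27me3 list labelled OTX2high held 40271458 tags and the list labelled OTX2low 33885628. The header of each H3K27me3 list names the opposite condition to its sample label. The IgG tag totals go with the headers, since the H3K27me3 list labelled OTX2high has the same IgG total as H3K4me3 OTX2low (55079542), and the list labelled OTX2low the same as H3K4me3 OTX2high (85840108). No value here measures which name is right for the cells, so the lists are called by their labels and no difference between conditions is read from them. The H3K27me3 differential table names conditions in its own header, and its directions would turn round if the sample labels were the right ones. At OTX2, the silenced gene, the authors' deposited table gave 3119 normalized H3K4me3 reads for OTX2high against 1768 for OTX2low, a log2 ratio of 0.82, though siRNA acts on the transcript and this does not measure the knockdown. All 7 markers of the Group 3 and photoreceptor programme had an H3K4me3 peak in both lists, as did all 4 neuronal markers, and 7 (OTX2high) and 6 (OTX2low) of 16 markers of other cell types had one. Over all genes the shares were 75% and 73.7%. The marker lists also differed between the conditions. All 7 Group 3 markers had an H3K4me3 region higher in OTX2high (median log2 ratio 0.87 in the authors' deposited table), and 1 of them also had one higher in OTX2low. All 4 neuronal markers had a region higher in OTX2low (median -1.34 in the authors' deposited table) and none one higher in OTX2high. Of 16 markers of other cell types, 6 had a region toward OTX2high and 1 had one toward OTX2low. Their median log2 ratio, from the authors' deposited table, was 1.8. Of 3 neural progenitor markers, 1 had a region, toward OTX2high (0.47 in the authors' deposited table). Over all genes 47.7% had a region toward OTX2high and 12% one toward OTX2low, and the median over genes with a region was 0.53. The lean to OTX2high was thus not confined to the Group 3 list.

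RefSeq promoters bear on the results because H3K4me3 lay over the annotated start of most members, and 7 of the 8 genes matched an entry of the promoter table. The 4 printed are those of the receptor with the highest H3K4me3 log2 ratio over its start (EPHB1), of the receptor and the ligand with the lowest (EPHB2 and EFNB2), and of the receptor whose listed start had no peak (EPHB6). Each is the 250 bases before the listed start, 5′ to 3′ on the gene's strand (GRCh38.p14), with CpG dinucleotides in capitals. They lie at chr3:134795010-134795259 (plus strand) for EPHB1, chr1:22710588-22710837 (plus strand) for EPHB2, chr13:106535663-106535912 (minus strand) for EFNB2 and chr7:142862506-142862755 (plus strand) for EPHB6.
EPHB1: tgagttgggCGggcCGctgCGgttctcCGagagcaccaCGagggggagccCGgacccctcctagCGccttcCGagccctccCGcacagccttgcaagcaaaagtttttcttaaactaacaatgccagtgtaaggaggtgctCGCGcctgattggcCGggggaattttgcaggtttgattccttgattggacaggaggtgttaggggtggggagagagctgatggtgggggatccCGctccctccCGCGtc
EPHB2: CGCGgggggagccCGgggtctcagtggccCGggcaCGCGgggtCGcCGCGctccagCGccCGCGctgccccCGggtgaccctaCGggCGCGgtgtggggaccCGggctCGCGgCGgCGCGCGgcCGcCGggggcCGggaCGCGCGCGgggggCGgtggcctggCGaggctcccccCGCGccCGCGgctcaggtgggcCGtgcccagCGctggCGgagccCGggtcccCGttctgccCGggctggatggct
EFNB2: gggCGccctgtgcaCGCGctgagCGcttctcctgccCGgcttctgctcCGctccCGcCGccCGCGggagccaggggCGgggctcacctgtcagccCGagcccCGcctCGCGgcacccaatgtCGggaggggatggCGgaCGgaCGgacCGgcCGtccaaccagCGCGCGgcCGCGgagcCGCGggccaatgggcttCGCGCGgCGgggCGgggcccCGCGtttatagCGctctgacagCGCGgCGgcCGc
EPHB6: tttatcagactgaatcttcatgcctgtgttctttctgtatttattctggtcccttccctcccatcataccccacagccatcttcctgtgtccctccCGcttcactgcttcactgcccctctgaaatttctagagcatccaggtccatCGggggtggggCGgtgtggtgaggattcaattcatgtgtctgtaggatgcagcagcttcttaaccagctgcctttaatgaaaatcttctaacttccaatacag
EPHB2 and EFNB2 each had 49 CpG dinucleotides in the 300-base promoter window of the table, which also takes 50 bases after the start. EPHB1 had 19 and EPHB6 had 3, against a median of 14 over 35116 promoters (quartiles 4 and 28). The remaining windows held 36 (EPHB4), 26 (EPHB3) and 18 (EFNB1). TAATCC, the bicoid-type site that OTX2 binds, was searched on both strands and was in none of these windows, and 6.36% of all promoter windows held it. CAGCTG, an E-box that reads the same on both strands, was found 144 bases before the EPHB3 start and 39 bases before the EPHB6 start, and 17.9% of windows held it. A palindromic homeodomain site, TAAT and ATTA held 3 bases apart, was in none, and 0.365% of windows held it.

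H3K4me3 marked all 8 genes in both conditions. The background was high, since 75% of all genes had such a peak in OTX2high and 73.7% in OTX2low. In OTX2high the highest fold enrichment belonged to EFNB2, at 47.5, followed by EPHB3 at 39.8, EFNB1 at 37.7, EPHB1 at 35.5, EPHB6 at 28.9, EPHB4 at 27.4, EFNB3 at 22.9 and EPHB2 at 18.4. In OTX2low the order ran from EFNB2 at 40.9 through EPHB3 at 33.0, EFNB1 at 26.2, EPHB2 at 24.6, EPHB6 at 22.5, EFNB3 at 20.0 and EPHB1 at 18.3 to EPHB4 at 17.9. Neighbors in these orders differ by little, and with 1 library there is no spread to judge them by. Among all peaks of its list, the strongest EFNB2 peak stood at the 83.8th percentile in OTX2high and the 86.8th in OTX2low, and the strongest EPHB2 peak at the 57.3rd and the 62.9th. The summit of the strongest H3K4me3 peak lay within 2 kb of the gene start at every member in both lists. For EPHB6 the first base of the RefSeq span was taken as the start in place of the listed start. For EFNB3, which has no listed start, the lower-coordinate end was taken.

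**Figure D1:**
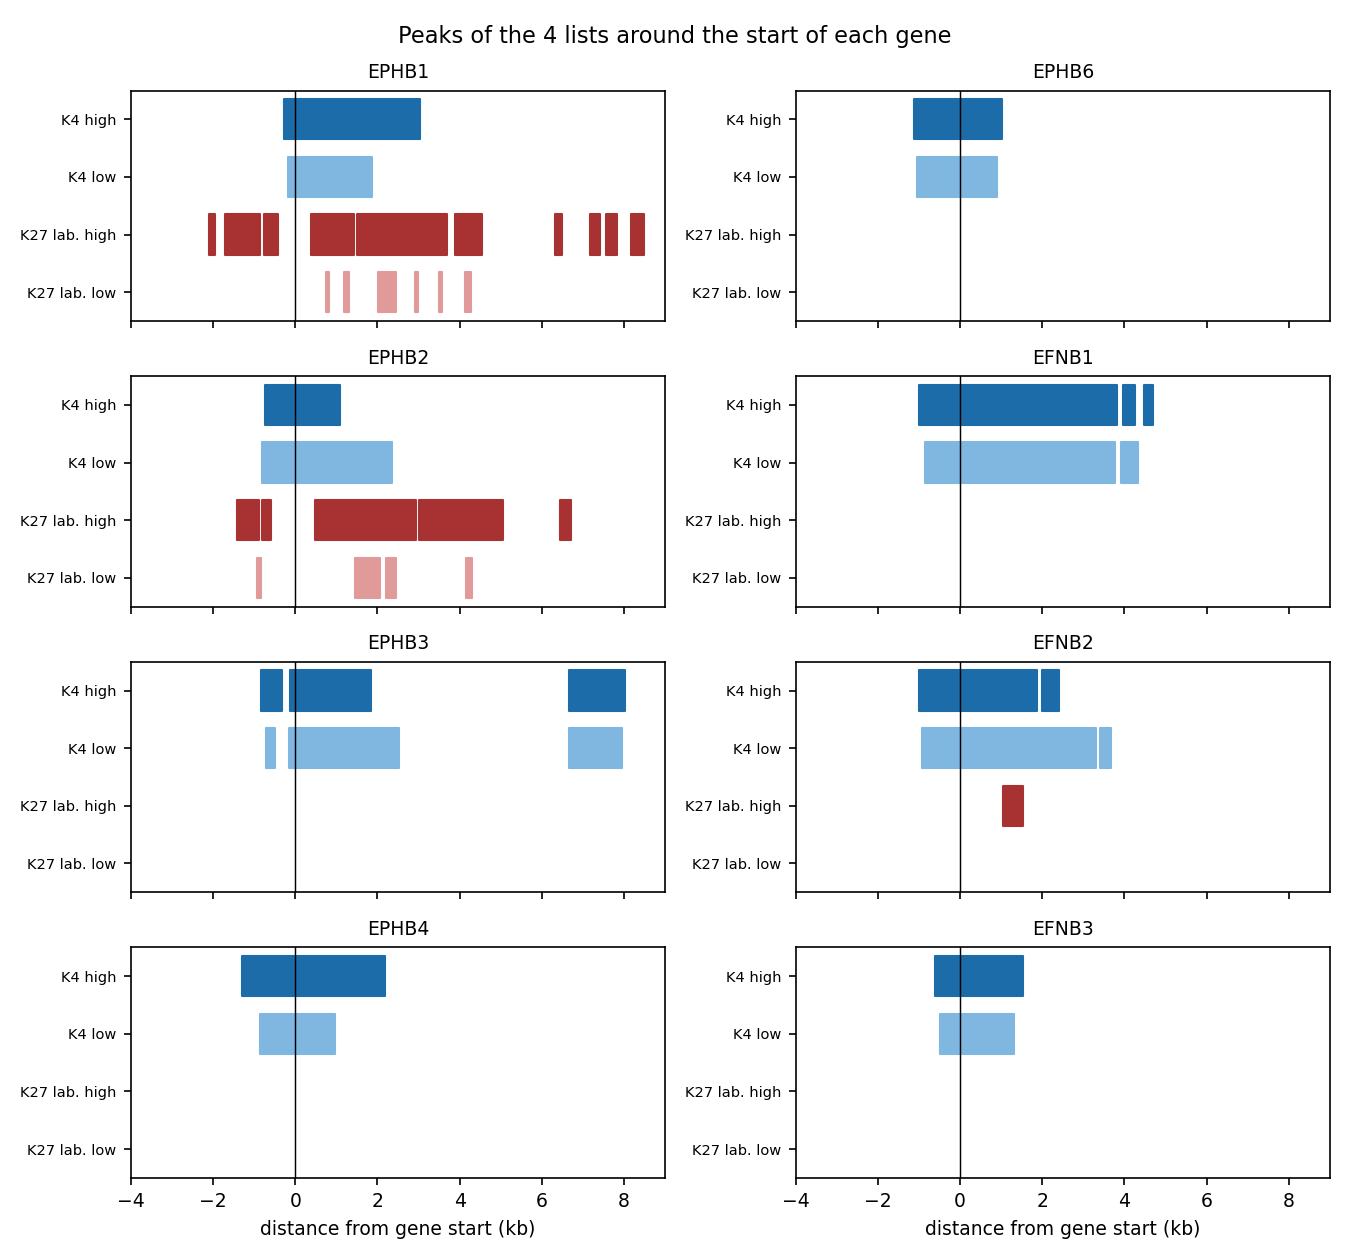
Peaks of the 4 lists around the start of each of the 8 genes, with distance along the gene in kb on the x axis and a row per list (K4, H3K4me3; K27, H3K27me3; lab., sample label). The vertical line is the RefSeq start (for EPHB6 the gene's first base, for EFNB3 its lower-coordinate end). H3K4me3 bars cover the start of every gene, and H3K27me3 bars appear at EPHB1, EPHB2 and, in 1 list, EFNB2.

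Differential H3K4me3 regions were listed at 6 of the 8 members, 10 regions in all. Of these 6 were higher in OTX2high and 4 in OTX2low. By gene, EPHB1, EPHB3, EPHB4 and EFNB1 had a region higher in OTX2high, where the background was 47.7% of all genes, and EPHB2, EFNB2, EPHB1 and EPHB3 had one higher in OTX2low, where it was 12%. A region in either direction was listed at 53.7% of all genes. Long genes meet regions more often, and of genes of 200 kb or more, as EPHB1 and EPHB2 are, 71.5%, 40.5% and 82.8% had one higher in OTX2high, higher in OTX2low and in either direction. Over all genes with a region, the median log2 ratio of the region with the most reads was 0.53, and over the 6 members it was -0.10. The median over all 21714 regions was 0.61, so each ratio is read against that shift as well as against 0.

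**Figure D2:**
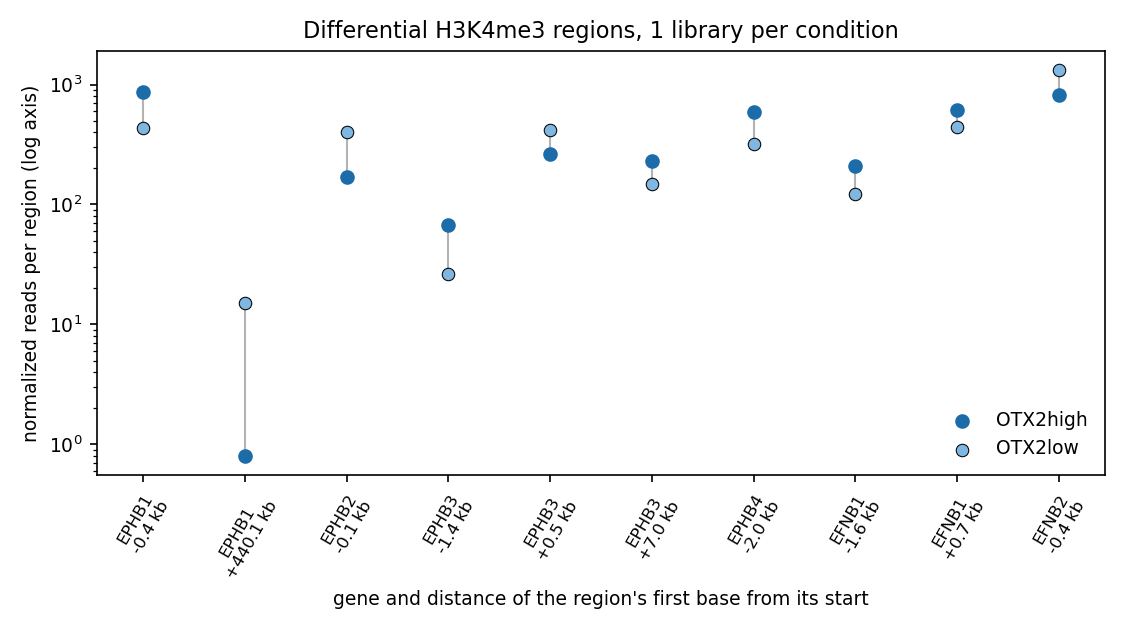
Normalized H3K4me3 reads of the 10 differential regions in the authors' deposited table, 1 point per library (dark, OTX2high; light, OTX2low) on a log axis, labelled by gene and by the distance of the region's first base from the start. OTX2low is the upper point for EPHB2, EFNB2, the middle EPHB3 region and the distal EPHB1 region.

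Among the receptors, EPHB2 (chromosome 1, 22710838 to 22921500, plus strand), which guides commissural axons and takes part in synapse formation, had the largest difference toward OTX2low at a gene start. The authors' deposited table gave 168 normalized OTX2high reads and 401 OTX2low reads for its region at 22710701 to 22713900, from 0.1 kb before the start to 3.1 kb into the gene. The log2 ratio in the authors' deposited table was -1.25 (interval -1.51 to -1.0, adjusted p listed as 0), a 2.38-fold difference, and it lay at -1.86 relative to the median of all regions. On the ratio of ChIP over IgG reads the region stood at 11.17 and 20.15 in the authors' deposited table, a smaller log2 difference of -0.85. OTX2low is thus the higher library at EPHB2, as at the 4 neuronal markers, whose part was not tested, with 320 whole reads against 211 in the deeper OTX2high library. The EPHB2 peak over the start ended 1094 bp into the gene in OTX2high and 2359 bp into it in OTX2low. Weaker H3K4me3 peaks with fold enrichments of 3.33 to 5.12 lay inside the gene, and the one about 205 kb from the start was called in both lists.

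EPHB1 (chromosome 3, 134795260 to 135260467, plus strand), a receptor of retinal and other axons that cross or avoid the midline, went the other way at its start. In the authors' deposited table the region over the start, 134794901 to 134798900, had 873 normalized OTX2high reads and 435 OTX2low reads. The log2 ratio in the authors' deposited table was 1.00 (interval 0.83 to 1.18, adjusted p listed as 0), or 0.39 above the median of all regions. On the ratio of ChIP over IgG reads the same region stood at 51.6 and 16.4 in the authors' deposited table, a log2 difference of 1.65. A second region, 440.1 kb into the gene and outside any peak, was listed at 0.80 and 15.04 normalized reads in the authors' deposited table, which is 1 whole read against 12. An exact binomial test on those reads gave p = 0.0002 and did not call it at the authors' cutoff of 0.0001. EPHB1 therefore counts in both directions above, and without that region 3 members had H3K4me3 higher in OTX2low.

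EPHB3 (chromosome 3, 184561785 to 184582408, plus strand), a receptor of axon guidance and epithelial positioning, had 3 regions that did not share a direction. The authors' deposited table listed 67.0 normalized OTX2high reads and 26.3 OTX2low reads just before the start (log2 ratio 1.35, interval 0.64 to 2.11, adjusted p = 0.00097). From 0.5 to 3.0 kb into the gene it was the other way (265 and 415 normalized reads), at a log2 ratio of -0.65 (-0.87 to -0.42, adjusted p = 1.2e-06) in the authors' deposited table. At 7.0 to 8.3 kb the authors' deposited table listed 229 and 149 normalized reads, a log2 ratio of 0.62 (0.30 to 0.94, adjusted p = 0.0016) that equals the median of all regions within 0.01. The library with more reads thus changed along the first 8.3 kb of the gene, and summed over the 3 regions the log2 ratio was -0.07. The authors' cluster table lists these regions as 1 of 1964 clusters of differential H3K4me3 regions, with an adjusted p of 0.0068.

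EPHB4 (chromosome 7, 100802565 to 100827523, minus strand), the receptor of venous endothelium and partner of ephrin-B2, had more H3K4me3 in OTX2high. In the authors' deposited table its region at 100824701 to 100829500 had 590 normalized OTX2high reads and 317 OTX2low reads, a log2 ratio of 0.89 (0.69 to 1.11, adjusted p listed as 0) and 0.28 above the median of all regions. The region and both peaks also cover the start of SLC12A9 at 100826869, which overlaps the first bases of EPHB4 on the plus strand, so the signal cannot be given to EPHB4 alone. EPHB6 (chromosome 7, 142855076 to 142871093, plus strand), whose kinase domain lacks activity, had no differential region of either mark. Its H3K4me3 peaks had pileups of 95 in OTX2high and 53 in OTX2low, not scaled for the tag totals of 33137731 and 20914582. Both peaks spanned the first base of the RefSeq gene span at 142855076. The start in the promoter table lies 7.7 kb farther into the span, and the nearest peak edge was 6.7 kb away from it in OTX2high and 6.8 kb in OTX2low.

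Of the ligands, EFNB2 (chromosome 13, 106489745 to 106535662, minus strand), the ephrin-B2 of arterial endothelium and of guidepost cells in the brain, was higher in OTX2low. The authors' deposited table gave 814 normalized OTX2high reads and 1321 OTX2low reads for its region at 106531401 to 106536100, which covers the start and 4.3 kb of the gene. The log2 ratio in the authors' deposited table was -0.70 (interval -0.82 to -0.57, adjusted p listed as 0), or -1.31 relative to the median of all regions. On the ratio of ChIP over IgG reads the region stood at 22.26 and 31.32 in the authors' deposited table, a smaller log2 difference of -0.49. The peak over the start reached 1880 bp into the gene in OTX2high and 3318 bp in OTX2low. Per kb, the EFNB2 region held 173 normalized reads in OTX2high and 281 in OTX2low, beside 382 and 279 at the second EFNB1 region described next. The 2 regions are unlike in length, 4700 and 1600 bp, so these values do not rank the genes. By fold enrichment of the strongest peak EFNB2 was the higher in both lists.

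EFNB1 (chromosome X, 68829021 to 68842160, plus strand), the X-linked ephrin-B1 of neural crest and cortical progenitors, had 2 regions higher in OTX2high. The authors' deposited table gave 210 and 122 normalized reads (OTX2high and OTX2low) around the start, a log2 ratio of 0.79 (0.45 to 1.14, adjusted p = 0.0001). From 0.7 to 2.3 kb into the gene it gave 611 and 446, a log2 ratio of 0.45 (0.27 to 0.64, adjusted p = 4.1e-05) in the authors' deposited table. Both favor OTX2high, but the second lies at -0.16 relative to the median of all regions, so its direction turns after recentring, and the interval of the first includes that median. The authors' cluster table lists the pair as a cluster with an adjusted p of 0.0049. EFNB3 (chromosome 17, 7705202 to 7711372), the midline ligand that keeps corticospinal axons from recrossing, had no differential region of either mark. Its peak at the lower-coordinate end of the gene had a pileup of 75 in OTX2high and 47 in OTX2low. These pileups too were not scaled for depth, which was greater in OTX2high (33137731 against 20914582 tags). The peak also lay within 2 kb of the end of the neighboring gene WRAP53. For EFNB3 and EPHB6 the absence of a listed region means that no window passed the authors' cutoff, not that the libraries were equal.

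**Figure D3:**
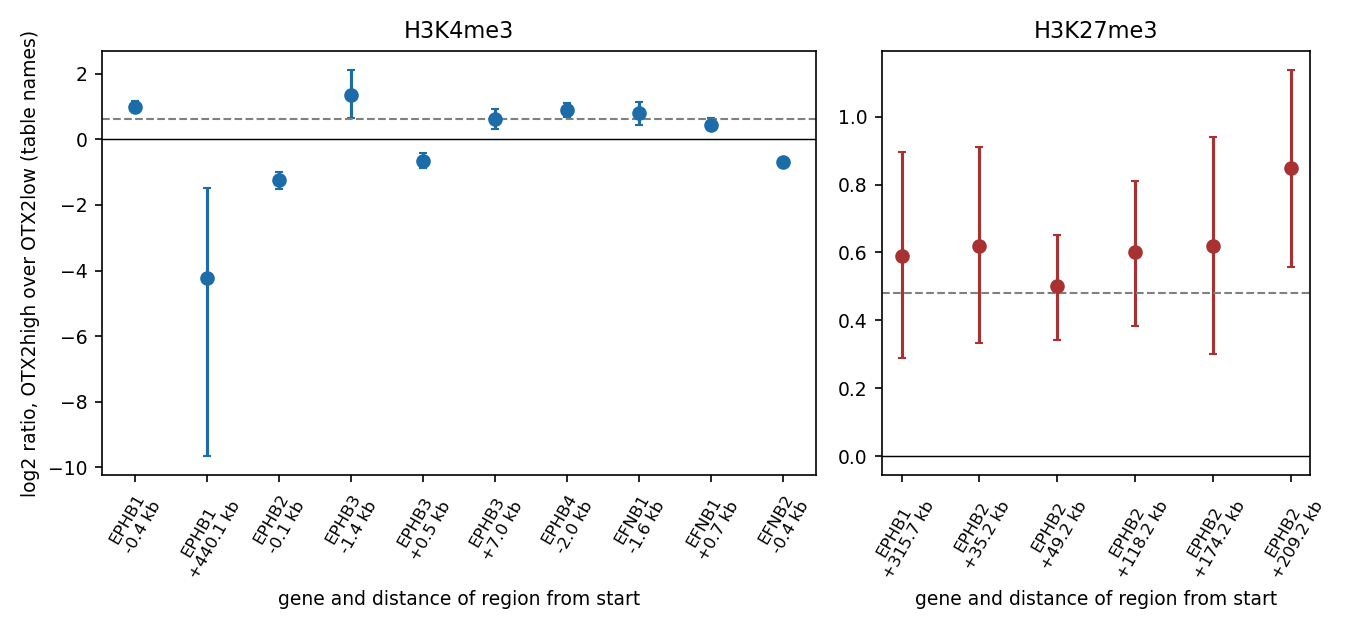
Log2 ratios (OTX2high over OTX2low, names as in the authors' deposited tables) of each differential region at the members, with 95% counting intervals; the panels have different y scales. The dashed line is the median of all regions of the mark, 0.61 for H3K4me3 and 0.48 for H3K27me3. EPHB2 and EFNB2 lie below 0, and the largest H3K27me3 value is that of the last EPHB2 region.

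The extent of H3K4me3 along the gene was compared by peak width. The widest H3K4me3 peak of EPHB2 was 1833 bp in OTX2high and 3171 bp in OTX2low. That of EPHB3 was 1983 and 2674 bp, and that of EFNB2 2887 and 4251 bp. In EPHB1 it was 3310 and 2060 bp, in EPHB4 3466 and 1831 bp, in EPHB6 2143 and 1956 bp, in EFNB1 4807 and 4626 bp and in EFNB3 2137 and 1792 bp. EPHB2, EPHB3 and EFNB2 therefore had the wider peak in the shallower library, as 15.5% of the 14587 genes with a peak in both lists did. The median ratio of OTX2low over OTX2high width was 0.87 over those genes, and the ratios of 1.73 for EPHB2, 1.47 for EFNB2 and 1.35 for EPHB3 stood at their 99.1st, 98.3rd and 97.6th percentiles. EPHB4 and EPHB1, at 0.53 and 0.62, stood at the 4.46th and 8.86th. In these 5 genes the edge inside the gene differed more between the lists than the edge before the start. The measure was chosen after the peak positions had been seen. Depth was lower in OTX2low, and all 4 neuronal markers also had the wider peak there, against none of the 7 Group 3 markers. The part of either in the widths was not tested.

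**Figure D4:**
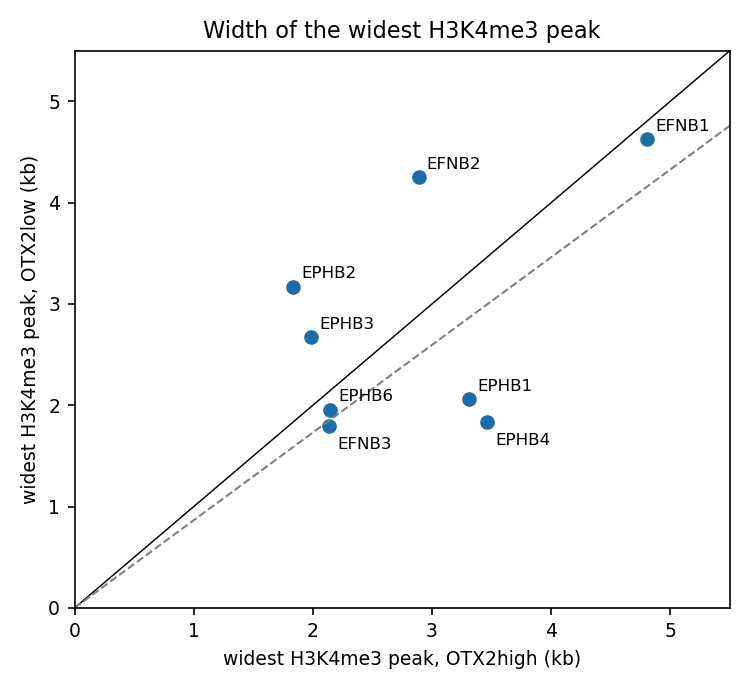
Width of each member's widest H3K4me3 peak in OTX2high (x axis, kb) and OTX2low (y axis, kb), 1 point per gene. The solid line marks equal width and the dashed line the median ratio of 0.87 over 14587 genes; EPHB2, EPHB3 and EFNB2 lie above both lines, EPHB1 and EPHB4 below both.

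H3K27me3 peaks lay at EPHB1 and EPHB2 in both lists and at EFNB2 in the list labelled OTX2high alone. That makes 3 of 8 members in that list and 2 in the list labelled OTX2low, where the backgrounds over all genes were 25.8% and 17.7%. EPHB1 (465.2 kb) and EPHB2 (210.7 kb) are long, and among 1396 genes of 200 kb or more the backgrounds were 39.4% and 27.4%. EPHB3, EPHB4, EPHB6, EFNB1 and EFNB3 had no H3K27me3 peak in either list.

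The EPHB1 span held 48 H3K27me3 peaks over 15.2 kb in the list labelled OTX2high and 11 over 1.5 kb in the list labelled OTX2low. The EPHB2 span held 38 over 16.7 kb and 20 over 3.1 kb. MACS estimated a fragment length of 169 bp for the first list and 78 bp for the second, and the part of that estimate in the number and width of peaks was not tested. In both genes the strongest H3K27me3 peaks stood near the start. At EPHB1 the strongest had a fold enrichment of 8.81 with its summit 2.1 kb into the gene (98.4th percentile of its list), and in the list labelled OTX2low 6.57 at 2.4 kb (92.9th). At EPHB2 the strongest reached 7.10 at 4.2 kb (95.3rd percentile) and, in the list labelled OTX2low, 7.58 at 1.9 kb (97.5th). The single EFNB2 peak, 472 bp wide, had a fold enrichment of 4.84 and lay 1.4 kb into the gene.

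The genes differed in how H3K27me3 peaks ran on into the body. EPHB2 had a second group, with 23 of 38 and 13 of 20 summits between 60 and 110 kb from the start and none beyond 133.1 kb. The bounds of 60 and 110 kb were not part of the plan, so these counts only describe where the summits lay. EPHB1 peaks thinned out from the start, with 6 of 48 and 6 of 11 summits within 5 kb of it and the last at 401.3 kb and 337.4 kb.

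**Figure D5:**
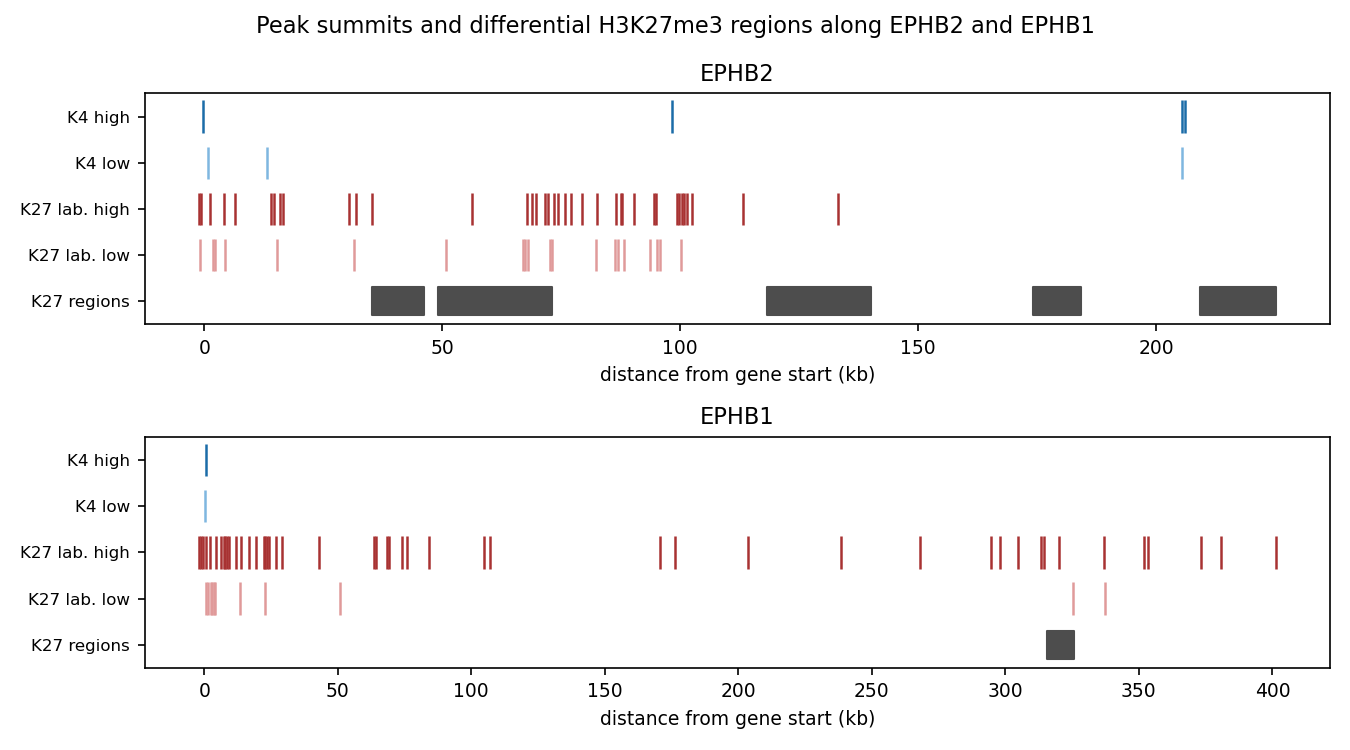
Peak summits of the 4 lists (ticks) and the differential H3K27me3 regions (gray bars, all higher in OTX2high by the table's names) along EPHB2 and EPHB1, by distance from the gene start in kb. EPHB2 shows a second group of H3K27me3 summits between 60 and 110 kb, and 2 of its 5 gray bars lie beyond the last summit.

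H3K4me3 and H3K27me3 peaks overlapped at EPHB1, EPHB2 and EFNB2, where 11.6% of all genes, and 25.7% of genes of 200 kb or more, had such an overlap. At EPHB2 the H3K4me3 peaks of OTX2high shared 748 bp with the H3K27me3 list labelled OTX2high and those of OTX2low shared 2074 bp with the same list. At EPHB1 the shared length was 2570 bp for OTX2high and 1415 bp for OTX2low. At EFNB2 it was 472 bp for both, the whole of the H3K27me3 peak. With the list labelled OTX2low the lengths were 0 and 755 bp at EPHB2 and 714 and 194 bp at EPHB1. At these promoters the overlap is of lists from many cells, and whether both marks sat on the same nucleosome was not tested.

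Differential H3K27me3 regions were listed at EPHB2 (5 regions) and EPHB1 (1 region), all higher in OTX2high by the table's names. Over all genes 3.61% had a region of that direction and 7.35% one higher in OTX2low, and among genes of 200 kb or more 14.3% and 12.5%. In either direction the backgrounds were 10.7% and 24.4%. No member had a region higher in OTX2low by the table's names. The EPHB2 region with the most reads, 49.2 to 73.2 kb into the gene, had 824 and 584 normalized reads in the authors' deposited table, a log2 ratio of 0.50 (0.34 to 0.65, adjusted p = 8.5e-09). The last, from 209.2 to 225.2 kb and past the end of the gene, held 272 and 151 normalized reads, with the largest ratio, 0.85 (0.56 to 1.14, adjusted p = 1.6e-07), in the authors' deposited table. The other 3 EPHB2 regions had log2 ratios of 0.60 to 0.62 in the authors' deposited table. At EPHB1 the region 315.7 to 325.7 kb into the gene held 225 and 150 normalized reads, at a log2 ratio of 0.59 (0.29 to 0.89, adjusted p = 0.001) in the authors' deposited table.

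These H3K27me3 regions were weakly enriched. In the authors' deposited table the ratio of ChIP over IgG reads was at most 3.53 in OTX2high and 2.46 in OTX2low, and 2 of the 5 EPHB2 regions overlapped no H3K27me3 peak. None of the 6 regions lay at the gene start, where the strongest peaks were. Relative to the median of all H3K27me3 regions, 0.48, the ratios lay between 0.02 and 0.37 above it, and only that of the last EPHB2 region had an interval that excluded the median. Most of that region lies past the end of the gene, and it overlaps no H3K27me3 peak. Over the 2139 genes with an H3K27me3 region, the median log2 ratio of the region with the most reads was -0.33. The same measure was 0.50 at EPHB2 and 0.59 at EPHB1. By the names in the tables, OTX2high thus had at EPHB2 fewer H3K4me3 reads over the start and more H3K27me3 reads in the body, and at EPHB1 it had more of both. By the headers, however, the OTX2high H3K27me3 library is the list labelled OTX2low, which had fewer peaks. These were 20 against 38 at EPHB2 and 11 against 48 at EPHB1. By header name, peak numbers and differential reads therefore pointed opposite ways, and the part of the fragment length estimate in this was not tested.

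A list of 52 other genes of Eph and ephrin signaling was counted in the same way. H3K4me3 peaks lay at 50 of them in OTX2high and 49 in OTX2low, where 75% and 73.7% of all genes had one. Differential H3K4me3 regions were listed at 40 genes, higher in OTX2high at 36 and in OTX2low at 12, with 8 counted in both, against backgrounds of 47.7% and 12% of all genes. Among genes of 200 kb or more the backgrounds were 71.5% and 40.5%. The list was not matched to all genes for length, and the part of gene length in these counts was not tested. The median log2 ratio over the 40 was 0.58, beside 0.53 over all genes with a region. Among the 14 class A receptors and ligands 9 had a region higher in OTX2high and 5 one higher in OTX2low, and among the 25 genes of forward signaling 20 and 5. Of 8 genes of reverse signaling 5 and 1, and of 5 genes of ligand or receptor cleavage 2 and 1, were so listed.

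By the naming rule, the lowest ratios within peaks were those of EPHA3 (-1.36), EPHA10 (-1.18), the kinase FYN (-0.97) and EPHA4 (-0.79) in the authors' deposited table. FYN, a Src-family kinase recruited by ephrin signaling, had 453 normalized OTX2high reads and 889 OTX2low reads in the authors' deposited table. The highest were those of VAV3 (2.87), VAV2 (2.72) and TIAM1 (2.07), and of RGS3 (1.82), which couples ephrin-B to G proteins, in the authors' deposited table. The VAV3, VAV2 and TIAM1 regions held few reads, 55.0, 24.7 and 52.7 normalized reads in OTX2high according to the authors' deposited table. The EPHA10 region held 39.9 (OTX2high) and 90.3 (OTX2low) in the authors' deposited table. Its ratio of ChIP over IgG reads was 8.11 and 7.62 there, so it was not higher in OTX2low on that measure. At EPHA3, FYN and EPHA4 the ratio of ChIP over IgG reads was higher in OTX2low. H3K27me3 peaks were called at 12 of the 52 genes in the list labelled OTX2high, against 8 in the other list and backgrounds of 25.8% and 17.7% of all genes. An H3K27me3 region was listed at 5 genes, where the background was 10.7%, higher in OTX2high at 2 and in OTX2low at 3 by the table's names. The 2 were EPHA3 (0.68) and SDC2 (0.58) in the authors' deposited table, both outside any H3K27me3 peak and so outside the naming rule. The 3 lay in peaks, with EPHA10 at -0.36, the protease MMP9 at -0.34 and EFNA3 at -0.29 in the authors' deposited table.

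The genes most like EPHB1 and EPHB2 were sought by the within-list percentile of the strongest peak, as the mean absolute difference over the 4 lists. Closest to EPHB1 were NTM at 0.74 percentile points, WNT9B at 1.75 and MECOM at 1.89. Closest to EPHB2 were GPC1 at 1.61, TMEM59L at 1.84 and KLK15 at 1.90. Since the 6 were picked on these percentiles, they share the pattern of EPHB1 and EPHB2 by construction. That pattern is an H3K4me3 peak of middling strength together with a strongest H3K27me3 peak near the top of each list. In the H3K27me3 lists labelled OTX2high and OTX2low it was the strongest of 48 and 11 peaks at EPHB1, and of 38 and 20 at EPHB2. The other H3K27me3 peaks of these genes were weaker and did not enter the measure. For NTM the percentiles were 72.8 and 54.0 in the H3K4me3 lists (OTX2high and OTX2low) and 97.3 and 92.9 in the H3K27me3 lists by label.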

How the data were processed

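H3K4me3 and H3K27me3 ChIP-seq of D283 cells was analysed from 4 peak lists and the authors' differential tables. The submitters' processing notes name Bowtie2 2.3.3.1, MACS2 2.1.1.20160309 and GRCh38. Per the file headers each narrow peak list was called by MACS from a single ChIP library, unpooled, with an IgG library as control and a q-value cutoff of 0.05. The deposited peak columns are a pileup signal, −log10 p-values and q-values, and a fold enrichment ratio. The differential tables were made with diffReps 1.55.6 (G-test, p cutoff 0.0001, windows of 1000 bp for H3K4me3 and 10000 bp for H3K27me3), per the file headers. Their deposited columns are reads divided by a constant per library (a signal), a ratio of ChIP over IgG, a log2 ratio and a p-value, raw and Benjamini-Hochberg adjusted. The authors' cluster table gives counts of regions.

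In the H3K4me3 table, dividing by the value of 1 read (0.798 in OTX2high, 1.25 in OTX2low) gave whole reads within 0.05 for 100% of values in both libraries, and an exact binomial test on them called 14225 of 21714 regions at the authors' cutoff. In the H3K27me3 table the same search gave steps of 1.14 and 0.875, with 100% of values whole. The intervals use these reads and cover counting error only, and the input files named in the headers are called dedup. Scripts were tested on simulated data. Genes, spans and promoters are RefSeq GRCh38.p14, and EFNB3 has no entry in the promoter table. Analysis used Python 3.11.15, pandas 2.3.3 and scipy 1.17.1.

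The members and gene lists were chosen with earlier results of these data known. All 8 members are named. Of the pathway list, the 4 highest and the 4 lowest log2 ratios among regions in peaks are named for each mark, and for the members with the highest and lowest H3K4me3 log2 ratio the 3 genes most alike. Alternatives were the span extension, a stricter q, the overlap, read and peak filters, recentring, other scalings and an exact test.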

Additional observations from a re-analysis of the deposited data

How the results depend on the processing

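No paired analysis was possible because each mark has 1 library per condition, and for the same reason no library could be left out. All 8 members kept an H3K4me3 peak in both lists under each span, overlap and q setting tried, and 43 of the 50 alternative values for the main counts and medians stayed within 1.5 times the first count or within 0.2 of the first median, among them a change of count from 4 to 3 and of the H3K27me3 median to 0.41 when scaled by total tags. The number of members with an H3K27me3 region higher in OTX2high by the table's names was 2, and it was 0 within 2 kb of the listed start. It was 1 after recentring, where the interval had to lie above the median of all regions. The ratios themselves stayed above that median at both genes. The median H3K4me3 log2 ratio over 6 members was -0.10 and became -0.71 after recentring, 0.23 when reads were summed over each member's regions and 0.00014 on the ratio of ChIP over IgG, so its sign is not settled. The median H3K27me3 log2 ratio over EPHB1 and EPHB2 was 0.545, became 0.065 after recentring and, by construction, -0.545 with the condition names exchanged (-0.59 for EPHB1 and -0.50 for EPHB2). Among single genes, EFNB1 H3K4me3 turned from 0.45 to -0.16 after recentring. EPHB1, EPHB2, EPHB3, EPHB4 and EFNB2 kept the sign of H3K4me3 under recentring, scaling by total tags, summing and the ratio over IgG, with EPHB3 at -0.07 when summed. On the ratio over IgG the log2 values were 1.65 for EPHB1, 1.43 for EPHB4, 0.49 for EFNB1, -0.85 for EPHB2, -0.93 for EPHB3 and -0.49 for EFNB2. The scalings by total tags and over IgG and the exact test were added after the data were seen. The intervals give the counting error of the reads only. The part of depth in which peaks were called, and in their number and width, was not tested.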
